A study of Mus musculus with 12 samples.

Results

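The AMPK subunits and their upstream kinase LKB1 were followed in quadriceps muscle of trained and sedentary mice. Members were the gene probes of the array whose gene name is Prkaa1, Prkaa2, Prkab1, Prkab2, Prkag1, Prkag2, Prkag3 or Stk11, which gave 8 of 19625 genes with a symbol and 11 of 41174 gene probes. Gene expression was measured on 12 one-colour Agilent arrays, each with RNA of a different mouse. All mice were 13-week-old C57BL/6J males. The 6 exercised mice trained on a motorised treadmill for 4 weeks and their muscle was taken 3 hours after the last bout, whereas the 6 controls stayed sedentary. No group trained without a recent bout, so training and the last bout cannot be told apart. The titles number the mice within sets 1 and 2 of unstated meaning, and a mouse is named here by its set and number.

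AMPK, the AMP-activated protein kinase, is a trimer of a catalytic alpha subunit (Prkaa1 or Prkaa2), a scaffolding beta subunit (Prkab1 or Prkab2) that also binds glycogen, and a gamma subunit (Prkag1, Prkag2 or Prkag3) that binds adenine nucleotides. When AMP and ADP rise, as in working muscle, LKB1 (gene Stk11) phosphorylates the activation loop of the alpha subunit, and the active kinase favours fuel uptake and oxidation over synthesis. Skeletal muscle is known for its complexes of the Prkaa2 and Prkab2 products, and the Prkag3 product is largely restricted to fast glycolytic fibres. Activity is set mainly by nucleotides and phosphorylation, which an expression array does not measure.

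The values are spot intensities taken to log2, from which each array's 75th percentile was then subtracted. A level of 0 is the brightness of the 75th percentile spot of that array. Between 21707 and 25229 probes per array were well above background, and the array profiles correlated at 0.978 to 0.993. Slide 1 carried 1 exercised and 3 sedentary mice, slide 2 carried 3 exercised and 1 sedentary, and slide 3 carried 2 of each group. All 8 defining muscle fibre genes were above background on every array. In bulk tissue, fewer cells of a type and less RNA per cell cannot be told apart, and each p-value measures the spread between these mice.

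No member passed the test. All 11 member probes were well above background on all 12 arrays and none was saturated, so each difference has a usable interval. Limma called 0 of 11 at a Benjamini-Hochberg adjusted p below 0.05, against 3.32% of the 22916 probes tested, and their adjusted p ran from 0.242 to 0.987. At an unadjusted p below 0.05, limma and the exact permutation test each gave 1 of 11, the same probe, against 15.7% of all probes in limma. With slide as a block in limma, 0 of 11 passed against 1.93% of all probes, and 0 of 11 against 13.9% had an unadjusted p below 0.05. The groups overlapped for every member probe, while they did not overlap for 2.89% of all probes. The median log2 difference, exercised minus sedentary, was -0.03 over the members and -0.02 over all probes. With 6 probes below 0 and 5 above, the differences ran from -0.27 to 0.13. For 9 of 11 probes the 95% interval lay within 0.5 of 0 on the log2 scale. Given their standard errors of 0.0609 to 0.140, the probes would have needed an observed difference of 0.24 to 0.56 to pass. True shifts of that size or larger can be missed too. On simulated data, 23 of 50 probes with a true log2 difference of 0.5 were called, and 42 of 50 at 1. Those probes were drawn at random from all tested probes, each with its own spread, so the shares are not those of the members. In the simulation 200 probes were shifted, whereas 760 were called in the data, so the simulated cut for a call was stricter.

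**Figure D1:**
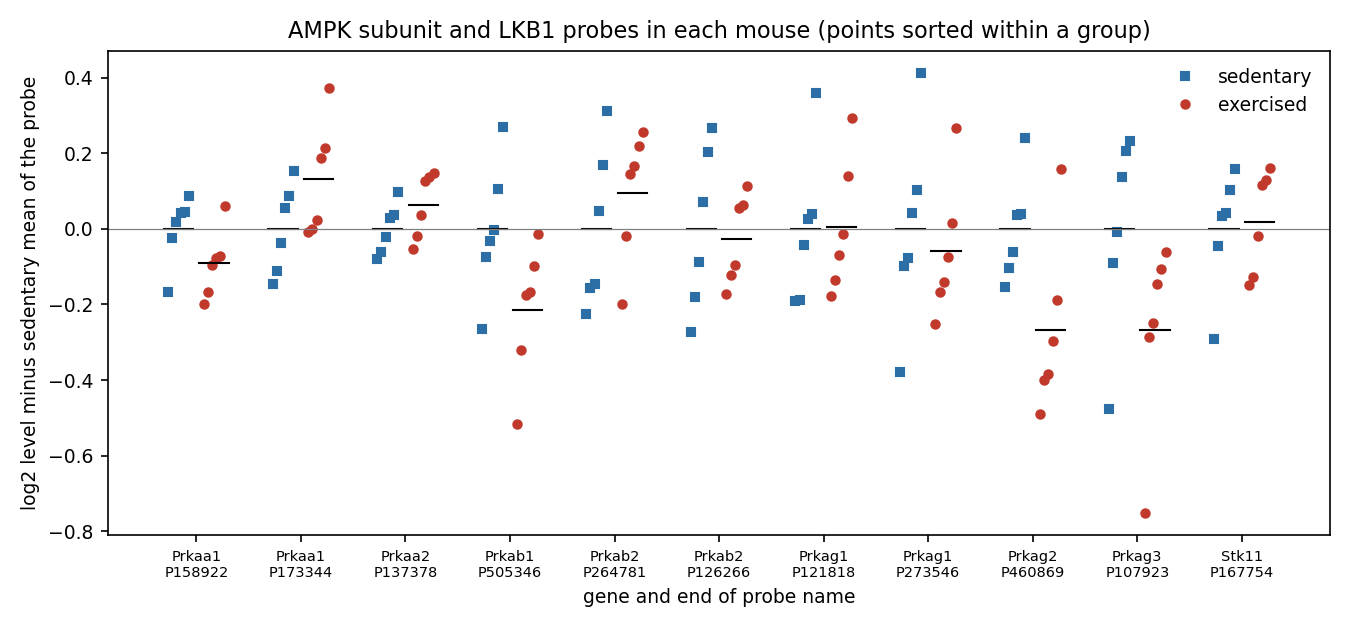
Log2 level of each member probe (horizontal axis) in each mouse, shown as the difference from the sedentary mean of that probe (vertical axis). Blue squares are sedentary and red circles exercised mice, sorted within a group, and bars are group means. The groups overlap for all 11 probes, and the exercised means of Prkag2 and Prkag3 lie lowest, at -0.27 each.

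Of the catalytic subunits, Prkaa1 was read by 2 probes whose differences had opposite signs, neither of which passed. The first, A_51_P158922, lies at chr15:5131426-5131485 (mm9, plus strand, in the array annotation). The second, A_52_P173344, aligns in blocks with a gap of 1482 bases at chr15:5127150-5128691, so it reads a joined transcript. Its sequence is shown, with that of the Prkag3 probe, because these are the member probes that read across a gap in the genome.
Prkaa1 A_52_P173344: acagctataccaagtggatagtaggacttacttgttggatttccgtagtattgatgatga
Prkag3 A_52_P107923: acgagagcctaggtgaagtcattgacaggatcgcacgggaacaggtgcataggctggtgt

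On the first Prkaa1 probe the exercised mice had a lowest, median and highest level of 1.20, 1.31 and 1.46, and the sedentary mice 1.23, 1.43 and 1.48. In all but 1 of the exercised mice the level lay below the sedentary median, yet the ranges nearly coincided. The difference was -0.09 (SE 0.0653, 95% interval -0.23 to 0.05, limma adjusted p = 0.568). The second probe, whose spots were dim at 30.0 to 57.7 intensity units, gave a difference of the opposite sign. Its levels were -2.38, -2.26 and -2.00 in exercised mice and -2.51, -2.36 and -2.21 in sedentary mice, a difference of 0.13 (SE 0.0835, 95% interval -0.05 to 0.31, limma adjusted p = 0.511). Across the 12 arrays these probes did not track each other (r = -0.25), whereas the paired probes of Prkab2 and of Prkag1 did, at r = 0.68 and 0.82. Without the 2 arrays farthest from the median of the pair's A_51 probe, these values were -0.04, 0.49 and 0.48. The exercised minus sedentary differences of the Prkaa1 probes differed by -0.22, which did not pass (exact permutation p = 0.0346, 0.104 after adjustment over the 3 genes with paired probes). Which of them follows the main Prkaa1 transcript was not tested.

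Prkaa2, the catalytic isoform that prevails in skeletal muscle, was the most tightly measured member. Its probe A_52_P137378 (chr4:104707708-104707767, minus strand) read 2.88, 3.02 and 3.08 in exercised mice and 2.85, 2.94 and 3.03 in sedentary mice. Here 3 exercised mice lay above the highest sedentary mouse and the others lay within the sedentary range. The difference was 0.06 (SE 0.0609, 95% interval -0.07 to 0.19, limma adjusted p = 0.695), and within slides 1, 2 and 3 it was 0.07, 0.04 and 0.08.

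**Figure D2:**
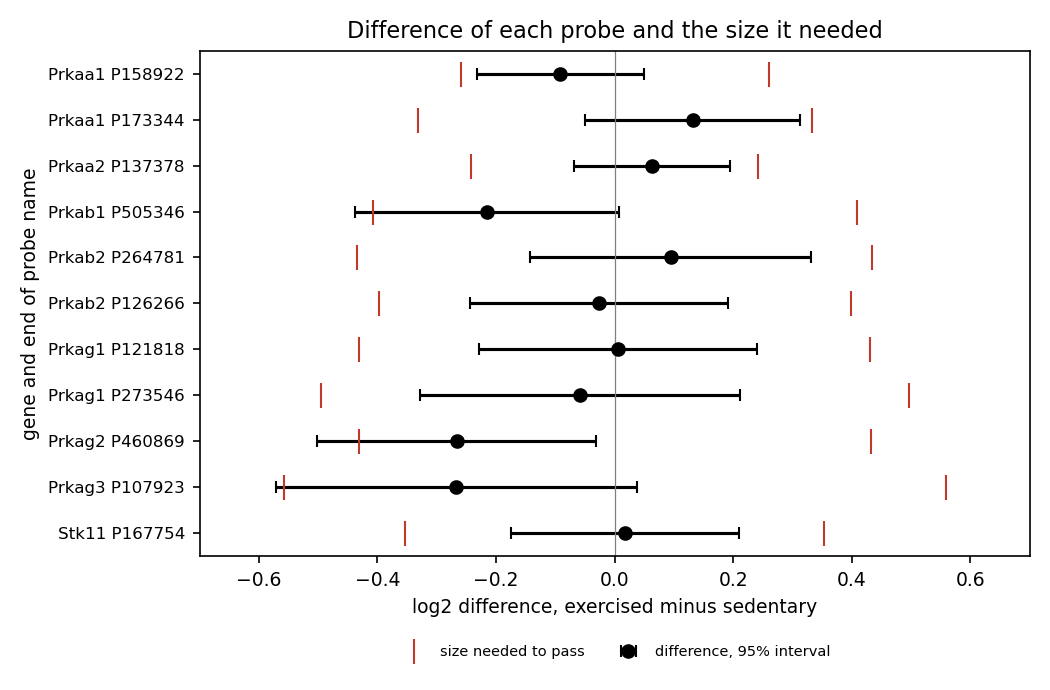
Log2 difference, exercised minus sedentary (horizontal axis), of each member probe (vertical axis) with its 95% interval from limma over 6 against 6 mice, and, as red ticks, the size each probe needed to pass at its own standard error. All 11 points lie inside their ticks, and 10 intervals hold 0.

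The balance of the isoforms was compared within each array, which shows only whether a pair of probes moved unequally. The Prkaa2 minus Prkaa1 difference, with the first Prkaa1 probe, was 1.69 ± 0.0982 (SD, n = 6) in exercised and 1.54 ± 0.0822 (SD, n = 6) in sedentary mice. In exercised mice it ran from 1.60 through a median of 1.66 to 1.86, and in sedentary mice from 1.41 through 1.55 to 1.64, so the groups overlapped only slightly. This shift of 0.15 passed (exact two-sided permutation p = 0.00866, 0.0433 after adjustment over the 5 pairs compared) and had the same sign on the 3 slides, at 0.13, 0.16 and 0.15. It did not hold with the other Prkaa1 probe, where the shift was -0.07 (adjusted exact permutation p = 0.465), nor with the mean of both probes, where it was 0.04 (adjusted exact permutation p = 0.438). Leaving out 1 mouse at a time kept the call in 3 of 12 fits, with adjusted p from 0.0217 to 0.119. The result therefore rests on the choice of the Prkaa1 probe.

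**Figure D3:**
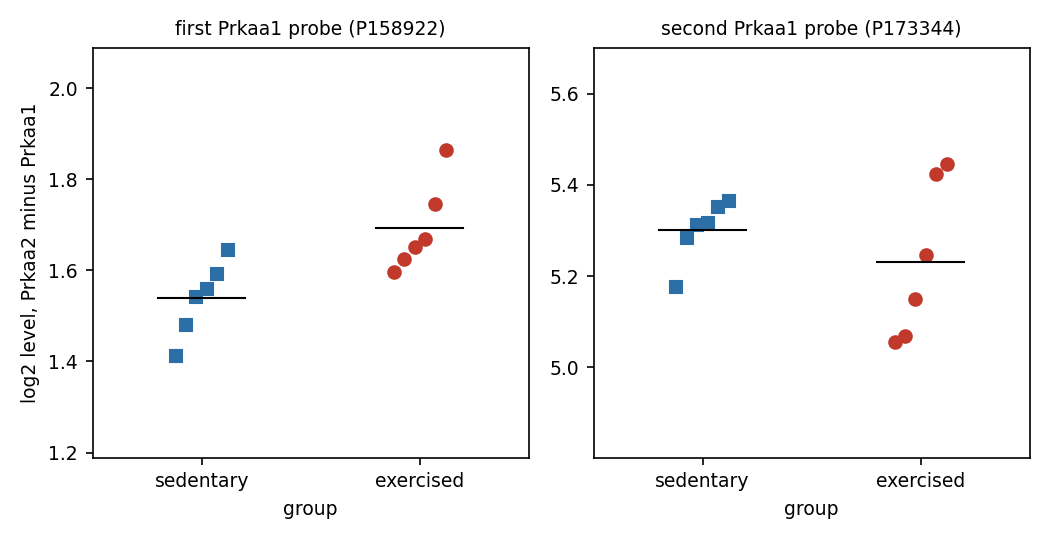
Within-array log2 difference of Prkaa2 minus Prkaa1 (vertical axis, panels of equal span but different range) in sedentary (blue squares) and exercised mice (red circles), with the first Prkaa1 probe on the left and the second on the right; bars are means. The exercised mean is 0.15 above the sedentary mean on the left and 0.07 below it on the right.

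Among the scaffolding subunits, Prkab1 was lower on average in exercised mice without passing. Its probe A_52_P505346 (chr5:116464097-116464156, minus strand) read -0.43, -0.08 and 0.07 in exercised and -0.17, 0.07 and 0.36 in sedentary mice. In 5 of 6 exercised mice the level lay below the sedentary median, and 2 lay below every sedentary mouse. The difference was -0.22 (SE 0.103, 95% interval -0.44 to 0.01, limma adjusted p = 0.340). Blocking on slide gave -0.14, and it was -0.16 without exercised mouse 4 of set 2, the lowest value. Leaving out sedentary mouse 5 of set 1 instead gave -0.27 (limma adjusted p = 0.213). Prkab2, the muscle isoform, differed little on either probe. Probe A_52_P126266 (chr3:97476843-97476902, plus strand) read 5.50, 5.65 and 5.79 in exercised and 5.40, 5.67 and 5.94 in sedentary mice, so that the exercised range lay within the sedentary one. Its difference was -0.03 (95% interval -0.24 to 0.19, limma adjusted p = 0.940). Probe A_51_P264781, at chr3:97477223-97477282, gave 0.09 (95% interval -0.14 to 0.33, limma adjusted p = 0.751). The within-array difference of Prkab2 minus Prkab1 was higher by 0.19 in exercised mice (adjusted exact permutation p = 0.200).

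The nucleotide-binding subunits held the largest member differences. Prkag1, the broadly expressed gamma isoform, differed by 0.01 (95% interval -0.23 to 0.24, limma adjusted p = 0.987) on probe A_51_P121818 at chr15:98643402-98643461, minus strand. It read 3.33, 3.46 and 3.80 in exercised and 3.31, 3.50 and 3.86 in sedentary mice, almost the same range. Its other probe, A_52_P273546 at chr15:98644986-98645045, gave -0.06 (95% interval -0.33 to 0.21, limma adjusted p = 0.881). On that probe the difference was 0.27 in set 1 and -0.28 in set 2. The interaction of training with set had an unadjusted limma p of 0.0316 and an adjusted p of 0.578. That interaction was called for 0 of all probes, and its unadjusted p was below 0.05 for 1 of 11 member probes and for 8.43% of all probes.

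Prkag2, a gamma isoform best known from an inherited glycogen storage disease of the heart, was the member probe with an unadjusted p below 0.05. Its probe A_51_P460869 (chr5:24368735-24368794, minus strand) read -1.45, -1.30 and -0.80 in exercised and -1.12, -0.97 and -0.72 in sedentary mice. Of the exercised mice, 5 lay below every sedentary mouse, and mouse 5 of set 1 lay above all sedentary mice but 1. The difference was -0.27, a sedentary level 1.20-fold the exercised one (SE 0.109, 95% interval of the log2 difference -0.50 to -0.03), with a limma unadjusted p of 0.0293, an adjusted p of 0.242 and an exact permutation p of 0.0390. Within slides 1, 2 and 3 it was -0.40, -0.63 and 0.11, so slide 3, which holds that mouse, had the opposite sign. Leaving that mouse out gave -0.35 (limma adjusted p = 0.0580). The spots were faint, at 76.7 to 117 intensity units, though above background on 12 of 12 arrays.

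Prkag3, the gamma isoform of fast glycolytic muscle, was lower in exercised mice by a similar amount and did not pass. Its probe A_52_P107923 aligns with a gap of 330 bases at chr1:74787380-74787769, minus strand, and its sequence stands above beside that of Prkaa1. It read 2.17, 2.72 and 2.86 in exercised and 2.44, 2.98 and 3.15 in sedentary mice. All 6 exercised mice lay below the sedentary median, but the ranges overlapped. Sedentary mouse 5 of set 2 was lower than all exercised mice but 1. Sedentary mouse 1 of set 1, at 2.83, also lay below the highest exercised mouse, at 2.86. The difference was -0.27 (SE 0.140, 95% interval -0.57 to 0.04, limma adjusted p = 0.397). Blocking on slide gave -0.22, and the difference was below 0 on each slide, at -0.10, -0.42 and -0.16. Without exercised mouse 4 of set 2, which had the lowest value, it was -0.17. Leaving out sedentary mouse 5 of set 2 instead gave -0.36 (limma adjusted p = 0.162). The balance against Prkag1 shifted by -0.27 for Prkag3 and by -0.27 for Prkag2, with adjusted exact permutation p of 0.200 for each.

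The levels of several members, most of all Prkag3 and Prkab2, followed the fast-fibre genes from array to array. The mean deviation of 9 fast-fibre genes, among them Myh4 and Actn3, correlated over the 12 arrays at r = 0.84 with Prkag3 (rho 0.84) and at r = 0.78 with Prkab2 (rho 0.81). Within groups the coefficients were 0.79 and 0.87, and without the 2 arrays farthest from the median of the member they were 0.70 and 0.79. Over the 12 arrays r was 0.65 for Prkag2, 0.63 for Prkab1, 0.41 for Prkaa1, 0.36 for Stk11, -0.04 for Prkag1 and -0.33 for Prkaa2. Within groups Prkag2 and Prkab1 were at 0.49 and 0.48, and the rho of Prkab1 was 0.39. These points share array, scaling and tissue piece, and the values are a description. None of the 9 fast-fibre genes passed the test. Their median difference was -0.18 and their summed level, relative to the 75th percentile, was 8893 to 10930 in exercised and 10030 to 12200 in sedentary mice. Of 7 slow-fibre genes none passed either, their median difference was 0.45, and the summed levels were 314 to 817 and 412 to 667. Their mean deviation correlated with Prkab2 at r = -0.71, Prkag2 at -0.36, Prkag3 at -0.35, Stk11 at -0.28 and Prkab1 at -0.07. For Prkaa1, Prkaa2 and Prkag1 it was 0.005, 0.10 and 0.22. Without the 2 arrays farthest from the median of the member, Prkab2, Prkag2, Prkag3, Prkab1 and Prkaa2 gave -0.39, -0.16, 0.05, 0.57 and -0.66. Sedentary mice 6 of set 1 and 2 of set 2 had the lowest slow-fibre scores, at -1.34 and -1.29, and without both the Prkag3 difference was -0.18 (limma adjusted p = 0.753). Members were also set against the endothelial, tendon and brown adipocyte genes. The r largest in size there was -0.58 (rho -0.68), for Stk11 with the endothelial genes. Within groups it was -0.84, and without the 2 arrays farthest from the median of Stk11 it was -0.24. The part of fibre composition in the differences of Prkag3, Prkag2 and Prkab1 was not tested.

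**Figure D4:**
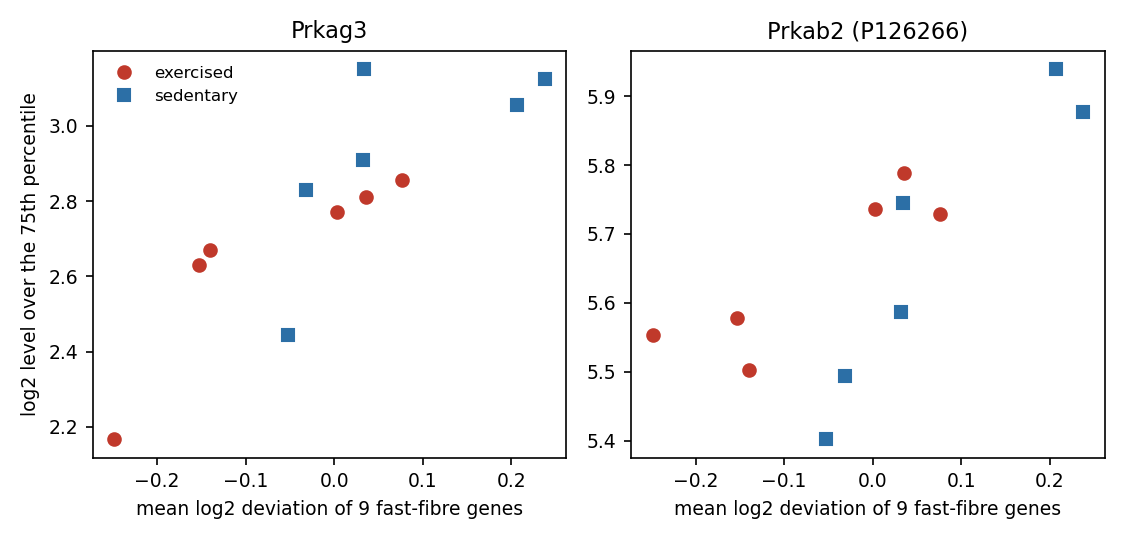
Log2 level of Prkag3 (left) and of the brighter Prkab2 probe (right) against the mean log2 deviation of 9 fast-fibre genes on the same array, for 6 exercised (red circles) and 6 sedentary mice (blue squares). The points rise together in both panels, at r = 0.84 and 0.78, and the exercised mouse lowest in Prkag3, at 2.17, is also lowest in the fast-fibre genes.

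Stk11, which encodes LKB1, did not differ detectably. Probe A_51_P167754 (chr10:79593278-79593337, plus strand) read 3.83, 4.03 and 4.14 in exercised and 3.69, 4.02 and 4.14 in sedentary mice, with 3 exercised mice on each side of the sedentary median. The difference was 0.02 (SE 0.0887, 95% interval -0.17 to 0.21, limma adjusted p = 0.956). By slide it was -0.23, -0.10 and 0.29, without a common sign.

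Among themselves the members were loosely related over the 12 arrays. The highest correlations were those of Prkab2 with Prkag3 (r = 0.69), Prkab1 with Prkag3 (r = 0.65) and Prkaa1 with Prkag1 (r = 0.61), and the lowest that of Prkaa2 with Prkag3 (r = -0.40). Without the 2 arrays farthest from the median of the gene named first in each pair, these became 0.59, 0.23, 0.52 and -0.39. That of Prkab1 with Prkag3 thus depended most on the arrays left out. Its rho was 0.45 and its r within groups 0.52. Among 13296 genes, the patterns most like each member over the 12 arrays had r of 0.86 to 0.93, which are the highest of many values. They were H3c14 and Tnks2 for Prkaa1, Uhrf1bp1l and Ufm1 for Prkaa2, Kif2a and Trim7 for Prkab1, and Itga7 and Exoc6b for Prkab2. For Prkag1 they were Xpnpep1 and Csnk2a2, for Prkag2 Psmf1 and Rad52, for Prkag3 Arhgef11 (r = 0.93) and Kcnj11 (r = 0.93), a subunit of the muscle ATP-sensitive potassium channel, and for Stk11 Stxbp3 and Crbn.

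The genes around AMPK gave few calls. Of 66 genes in 7 lists of partners, related kinases, substrates, brakes and transcripts, 63 were tested, 4 rose and 0 fell (limma), which is 6.35% of them. Of all 13372 genes tested by symbol 3.61% were called, 1.94% higher and 1.68% lower. At an unadjusted limma p below 0.05, 9 were higher and 1 lower, which is 15.9% of them against 16.5% of all genes by symbol (6.79% higher and 9.67% lower). Their median log2 difference was 0.01, and with slide as a block Sik1 and Ppargc1a were the only calls. The lists were chosen with earlier results of these data known, so these shares are a description and not a test.

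Of 7 LKB1 partners and other AMPK kinases, 1 rose. Cab39, the MO25 scaffold that holds LKB1 active, read 2.54, 2.57 and 2.78 in exercised and 2.08, 2.19 and 2.51 in sedentary mice, so the groups did not overlap. It was 1.28-fold higher (95% interval 1.12 to 1.46, limma adjusted p = 0.0457). Probe A_51_P230934 of Cab39 rose by a log2 of 0.41 (limma adjusted p = 0.0173), and A_52_P375652, at 0.19, did not pass (limma adjusted p = 0.358). The size hardly moved with slide as a block, quantile scaling or median scaling, at log2 0.34, 0.35 and 0.35 against 0.35, but each ended the call (limma adjusted p = 0.136, 0.0594 and 0.109). So did removal of the 2 arrays lowest in slow-fibre genes (0.28, limma adjusted p = 0.221) and 10 of the 12 fits that each left out 1 mouse. The list's median was -0.03, with 2 members above 0 and 5 below.

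Of 10 tested AMPK-related kinases that LKB1 activates, Sik1 alone passed. This salt-inducible kinase rose 4.33-fold (95% interval 3.06 to 6.13, limma adjusted p = 0.000366), from -3.12 to -1.67 in sedentary mice to -0.62 to 0.15 in exercised mice, with no overlap. Under a normexp background correction with limited background the log2 difference was 1.15 in place of 2.11, and it still passed (limma adjusted p = 0.000134). The list's median was 0.11.

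Of 14 substrates in lipid and glucose metabolism none passed, with 1 higher and 1 lower at an unadjusted limma p below 0.05. The higher one was Tbc1d4, a brake on glucose transporter traffic, at 0.36 (limma adjusted p = 0.0740), with 0.36 and 0.19 on its other probes. The lower one was Pfkfb3, an enzyme whose product activates glycolysis, at -0.55 (limma adjusted p = 0.299). Acacb, the acetyl-CoA carboxylase whose phosphorylation reports AMPK activity in muscle, differed by 0.05 (limma adjusted p = 0.839), and Tbc1d1, a relative of Tbc1d4, by 0.32 (limma adjusted p = 0.392). Of 9 tested substrates in growth and autophagy none passed, and none had an unadjusted limma p below 0.05. Pik3c3, the autophagy lipid kinase, stood at -0.22 (limma adjusted p = 0.658), which rested on sedentary mouse 5 of set 1 and was -0.019 without it. Fnip1, a folliculin partner, stood at -0.09 (limma adjusted p = 0.780).

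**Figure D5:**
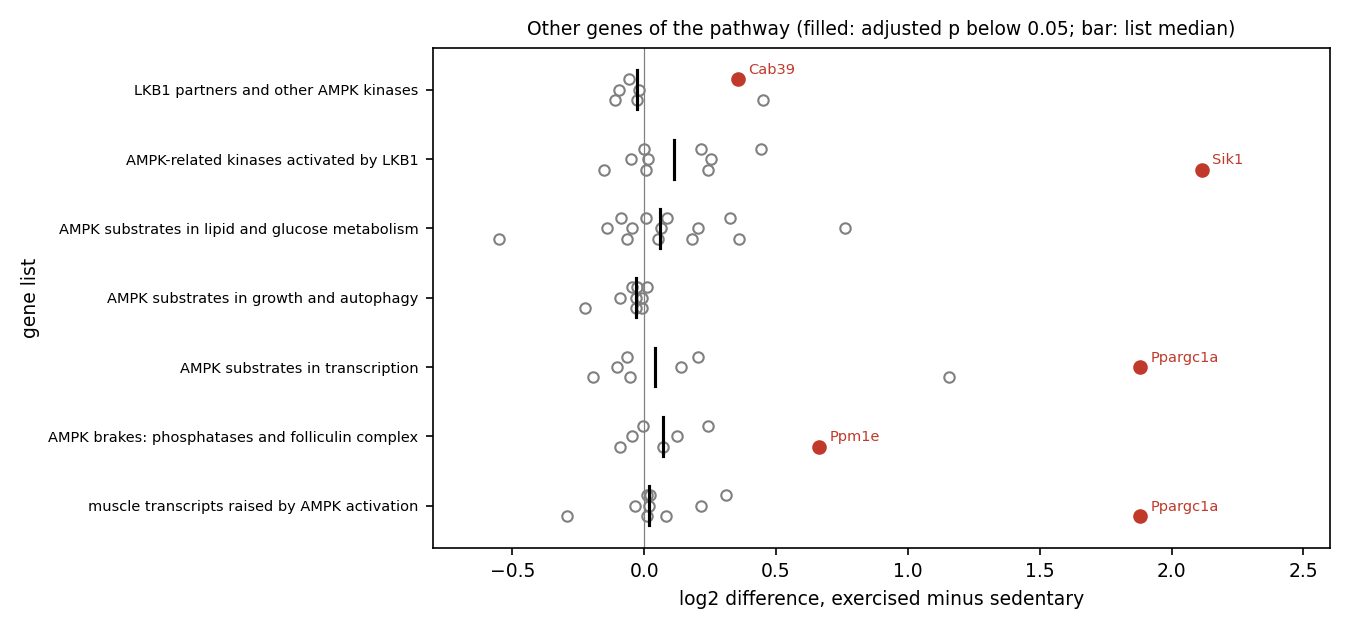
Log2 difference, exercised minus sedentary (horizontal axis), of the tested genes of 7 lists around AMPK (vertical axis). Filled red points passed at an adjusted limma p below 0.05, open points did not, and bars are list medians; the 4 called genes lie to the right of 0, and Ppargc1a stands in more than 1 list.

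Of 8 transcription regulators that AMPK phosphorylates, 3 were higher and 0 lower at an unadjusted limma p below 0.05. That is 37.5% against 16.5% of all genes by symbol, the highest share of the 7 lists, which together gave 15.9%. Besides Ppargc1a these were Foxo3 and Ep300. Foxo3 was dim, above background on 6 exercised and 3 sedentary arrays, so it met the probe filter through the exercised group. Ep300 had an unadjusted limma p of 0.0443, and of 0.108 with slide as a block. After adjustment Ppargc1a alone passed. This coactivator of mitochondrial genes rose 3.69-fold (95% interval 2.70 to 5.03, limma adjusted p = 0.00038), with 3.14 to 4.37 in exercised and 1.41 to 2.02 in sedentary mice. Its other probe, A_52_P5945, rose by less, at a log2 of 1.24 against 1.88 (limma adjusted p = 0.00858). It also made up the single call among 10 muscle transcripts known to rise on AMPK activation, whose median was 0.02. Slc2a4, the insulin-responsive glucose transporter, stood at 0.01 there (limma adjusted p = 0.976). Of 7 brakes on AMPK, Ppm1e rose. This phosphatase of the AMPK activation loop was 1.59-fold higher (95% interval 1.31 to 1.92, limma adjusted p = 0.0136) at a dim level, with -3.47 to -2.88 in exercised and -4.01 to -3.44 in sedentary mice, a slight overlap. Blocking on slide ended its call (limma adjusted p = 0.0519), as did removal of the 2 arrays lowest in slow-fibre genes (0.0589), and under a normexp background correction with limited background the difference was 0.12 (limma adjusted p = 0.412).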

How the data were processed

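The deposited scanner files give an intensity for each spot. Agilent Feature Extraction 10.5.1.1 produced them per the file headers of 12 of 12 arrays, while the submitters' processing notes name 9.1. The processed signal was background-subtracted by that program and not scaled between arrays. Outlier-marked and control spots were dropped, and repeated spots averaged. From the log2 intensity the 75th percentile of the array was subtracted. Probes well above background on at least 6 of 12 arrays were kept, which left 22916. Exercised was compared with sedentary in limma 3.58.1 (R 4.3.3, data.table, version 1.17.8) without a block, adjusted by Benjamini-Hochberg over all probes kept. Within-array differences were tested by exact two-sided permutation of the 12 arrays. The log2 of the deposited values from the series matrix served as an alternative, and 100% of them for single-spot probes lay within 0.1% of the processed signal. Coordinates come from the mm9 columns of the array files, and exon and UTR annotation was not used here.

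Pathway genes with several probes were read by the brightest on average. Named were all member probes, the called genes of each list or, where none was called, the 2 with the smallest p, 4 genes in any case (Acacb, Tbc1d1, Slc2a4, Ppargc1a), and the 2 genes with the most similar pattern for each member. Foxo3 and Ep300 were named besides, to identify the unadjusted calls of their list. The members and lists were chosen with earlier results of these data known. Marker lists numbered 11. Of markers of other cells, Kdr and Egfl7 of the endothelial list (median -0.27) and Ppara of the brown adipocyte list (median 1.48) were called, and none of the macrophage (0.08), white adipocyte (0.39), tendon (0.91), fibro-adipogenic progenitor (0.06), Schwann cell (0.29), erythrocyte (0.31) or muscle fibre (-0.10) lists. Simulated data covered 22916 probes with independent normal noise, of which 200 drawn at random were shifted. The comparison of exercised with sedentary recovered 1 of 50 probes at a true log2 difference of 0.25 and 23 of 50 at 0.5. It recovered 42 of 50 at 1 and 50 of 50 at 2, with 6 false calls.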

Additional observations from a re-analysis of the deposited data

Results flagged for a closer look

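Among 44 groups of 6 mice examined for a value far from the others, 22 of them of member probes, 2 held one; chance gives about 1 in 20. The Prkag3 level of exercised mouse 4 of set 2 was 2.17, and the nearest exercised mouse was at 2.63, a gap of 0.673 of the group's range. The same array was lowest of all 12 in the fast-fibre score, at -0.25, and lowest in Prkab1, at -0.43. The Pik3c3 level of sedentary mouse 5 of set 1 was 0.87, with the nearest at -0.24, a gap of 0.835 of the range. Without that mouse the Pik3c3 difference was -0.019 in place of -0.22, and on slide 2, where it was the single sedentary array, it was -1.20.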

How the results depend on the processing

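No member probe was called under any of the 32 alternative settings, and over 338 member values the log2 differences ran from -0.63 to 0.39 with a lowest limma adjusted p of 0.0580. The count of all probes called was 394 with no probe filter, 443 with slide as a block, 0, 10 and 0 within slides 1, 2 and 3, 1281 at an adjusted p below 0.10, 347 without the 2 arrays lowest in slow-fibre genes, and 520 to 706 when 1 mouse was left out. The pathway count of 4 became 2 with slide as a block, with limited normexp and without those 2 arrays, 0 within each slide, and 3 to 4 when 1 mouse was left out. Normexp as planned gave 0 calls in all and 0 in the pathway, with 4 of 12 arrays failing its background fit; limiting the background, removing arrays by their slow-fibre or brown adipocyte genes, the second Prkaa1 probe and the tests between probes of 1 gene were chosen after seeing the data. Whether shared set and animal numbers pair the mice was not settled. Deviations of the mice that share a number correlated at 0.14, -0.18, 0.09 and 0.24. Of 8 arrays, 4 correlated best with their own number, and no chance rate was computed. With the shared number as a replicate block on the 8 arrays, 34 probes, 0 members and 0 pathway genes were called.

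The Prkaa2 minus Prkaa1 shift of 0.15 was 0.14 by quantile scaling (adjusted exact p = 0.0974), 0.21 by normexp (0.720), 0.043 with the mean of probes, -0.069 with the second probe and 0.12 to 0.18 without 1 mouse; that of Prkag3 minus Prkag2 was 0.019 by normexp and -0.083 to 0.073 without 1 mouse. Signs turned as follows, for differences of at most 0.13 in size except that of Prkag2, which was -0.27. By normexp they were 0.0055 and -0.025 for the Prkaa1 probes, 0.34 for Prkab2 A_52_P126266, 0.051 for Prkag1 A_52_P273546 and 0.024 for Fnip1. With slide as a block they were 0.042 for Prkab2 A_52_P126266, -0.018 for Prkag1 A_51_P121818 and 0.0065 for Fnip1. Within slide 1 they were -0.10 for Prkab2 A_51_P264781, -0.11 for Prkag1 A_51_P121818, -0.23 for Stk11, 0.042 for Fnip1, -0.024 for Acacb and -0.17 for Slc2a4. Within slide 2 they were -0.011 for Prkab2 A_51_P264781, 0.22 for Prkag1 A_52_P273546 and -0.098 for Stk11. Within slide 3 they were -0.11 for Prkaa1 A_52_P173344, 0.14 for Prkab2 A_52_P126266, -0.12 for Prkag1 A_51_P121818, 0.11 for Prkag2 and 0.23 for Fnip1. With the replicate block they were 0.14 for Prkab2 A_52_P126266, -0.063 for Prkag1 A_51_P121818 and 0.094 for Fnip1. Prkag1 A_51_P121818 was -0.0054 with the title set as a block, and with array weights it was -0.0046 and Slc2a4 -0.0024. With limited normexp Prkab2 A_52_P126266 was 0.037. Without the arrays lowest in slow-fibre genes it was 0.091, Prkag1 A_51_P121818 -0.035 and Fnip1 0.031. Without the 2 highest in brown adipocyte genes Prkag1 A_51_P121818 was -0.099, Stk11 -0.042 and Slc2a4 -0.054. Without 1 mouse the ranges were -0.081 to 0.027 for Prkab2 A_52_P126266, -0.051 to 0.078 and -0.13 to 0.025 for the Prkag1 probes, -0.040 to 0.051 for Stk11 and -0.044 to 0.061 for Slc2a4. The causes were not tested.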
